A study of Rattus norvegicus with 30 samples.

Results

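Cytosolic ribosomal proteins are the protein components of the ribosomes that read messenger RNA in the cytoplasm, and their transcripts were followed here in the rat testis during the first hours after a phthalate. The members were the array features (probe sets, each a group of short probes for one transcript) with a single annotated gene symbol beginning Rpl or Rps, for the large (60S) and small (40S) subunit. A count of 68 probe sets matched those letters. Leaving out 14 probe sets for the Rps6k kinases, which phosphorylate ribosomal protein S6 and are not ribosomal, and 2 for pseudogenes left 52 probe sets for 47 genes, out of 31042 probe sets that were no array controls. The large subunit had 37 probe sets for 33 genes and the small subunit 15 probe sets for 14 genes. In all, 49 probe sets for 45 genes were bright enough to test. The 3 others were Rpl3l, Rpl30 and a dim probe set of Rpl14, whose second probe set was tested. A further 30 probe sets listed several ribosomal protein symbols, so they could not be assigned to 1 gene and are only counted. Rplp1, Rplp2, Rps14, Rps19 and Rps27a had no probe set of their own under this rule.

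Male Fischer rats at postnatal day 28 received mono-(2-ethylhexyl) phthalate (MEHP) once by gavage, at 1 g/kg in corn oil, and the controls received only the oil. This compound is what the body makes from a common plasticizer (di-(2-ethylhexyl) phthalate), and its best known target in the immature testis is the Sertoli cell, which supports the germ cells. Testes were taken at 1, 2, 3, 6 or 12 h, from 3 treated and 3 control rats at each time. Total RNA of each animal went onto an array of its own, giving 30 Affymetrix arrays in 10 groups, and the p-values below measure the spread between animals. The groups share strain, sex, age and the oil vehicle. There was no group without gavage, so an effect of the oil or the handling was not measured. Whole testis RNA was used, so fewer cells of a type and less RNA per cell cannot be told apart.

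Ribosomal protein genes belong to the most strongly expressed genes of any cell, because every dividing or secreting cell must build new ribosomes from equal amounts of each protein. Their messenger RNAs begin with a C followed by an unbroken run of pyrimidines, the 5′ terminal oligopyrimidine (TOP) motif, through which the growth-sensing kinase mTOR can hold back or release their translation without changing the amount of message. When ribosome assembly fails, some free ribosomal proteins bind the ubiquitin ligase Mdm2, and p53 accumulates. The testis also uses copies of some ribosomal protein genes, called paralogues, in germ cells.

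The starts of several genes are shown because a pyrimidine run near the start is common among the members. RefSeq windows around the annotated start (build GRCr8) were found for 42 of the 47 genes. A run of at least 6 C or T letters within 5 bases of the start was present in 26 of the 42 (61.9%), against 6273 of 33465 windows of all genes (18.7%). Rpl3, Rpl11, Rps3, Rps6 and Rps16 were among those without a run this close to the annotated start, so its lack there was not limited to paralogues. Rps3 and Rps6 hold runs of this length further before the annotated start, which the rule did not count. Each sequence below runs from 40 bases before to 20 bases after the annotated start, 5′ to 3′ on the gene's own strand, with the run in capitals. The runs of Rps15a (-10 to -1) and Rpl5 (-14 to -4) end before the annotated start. By this annotation they lie outside the message. Rpl27a lies at chr1:172974533-172974592 on the plus strand, Rplp0 at chr12:46718371-46718430 on the minus strand, Rps15a at chr1:181860265-181860324 on the minus strand, Rpl5 at chr14:1995206-1995265 on the minus strand and Rps23 at chr2:23814477-23814536 on the plus strand. Rps27l, at chr8:76443618-76443677 on the plus strand, is a paralogue without such a run in this window and is shown for contrast.
Rpl27a: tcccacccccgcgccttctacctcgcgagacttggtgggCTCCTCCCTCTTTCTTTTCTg
Rplp0: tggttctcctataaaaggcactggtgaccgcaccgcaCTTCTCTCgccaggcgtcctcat
Rps15a: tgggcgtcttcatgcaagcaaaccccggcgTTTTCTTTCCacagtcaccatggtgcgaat
Rpl5: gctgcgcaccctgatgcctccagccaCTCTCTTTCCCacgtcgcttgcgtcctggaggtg
Rps23: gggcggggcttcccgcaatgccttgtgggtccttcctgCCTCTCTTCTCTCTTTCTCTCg
Rps27l: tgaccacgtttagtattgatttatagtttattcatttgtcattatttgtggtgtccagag

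Other short words were searched on both strands of the 300-base windows. CCGGAA, the core of the ETS factor motif, was in 16 of the 42 windows (38.1%) and in 15% of all windows. AAGATGGC, part of the YY1 motif, was in 4 (9.52%) against 3.17%, and TATAAA was in 6 (14.3%) against 14.2%. These are letter matches and show no binding.

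The transcripts were abundant on every array. Of the 49 tested probe sets, 41 had a mean signal between 1681 and 25924, and on each of the 30 arrays 38 ribosomal protein probe sets lay among the brightest 2% of features. The other 8 were dim, with mean signals from 70.0 (Rpl28) to 490 (Rps27l). The median residual standard deviation between animals of a group was 0.0990 in log2 over the 49 probe sets. It was 0.237 over all 21190 probe sets tested, which were mostly dimmer (median mean signal 354, against 12472). At a mean signal of at least 10000 it was 0.0911 for 34 ribosomal protein probe sets and 0.112 for 161 others. A small spread was thus shared with other bright probe sets. Within the 49, this standard deviation was 0.0966 for the 41 bright and 0.298 for the 8 dim probe sets. The signals are linear and already scaled by the authors, and differences below are MEHP minus corn oil on the log2(signal + 16) scale with the standard error (SE) of the limma fit.

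Of the 49 ribosomal protein probe sets 1 passed the test at 2 h, as lower after MEHP, and at 1, 3, 6 and 12 h none passed. Over 1, 2, 3, 6 and 12 h the median difference of the 49 probe sets was -0.05, -0.20, -0.01, 0.03 and -0.02 in turn. Over all probe sets tested the corresponding medians lay between -0.04 and 0.01. Of the 49, the number with a difference below 0 was 42, 42, 28, 17 and 30 in the same order. The 2 h median depended on the scaling and the controls, at -0.06 after quantile normalization, -0.11 when fitted with the spike level and -0.05 against the 1 h corn oil animals.

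**Figure D1:**
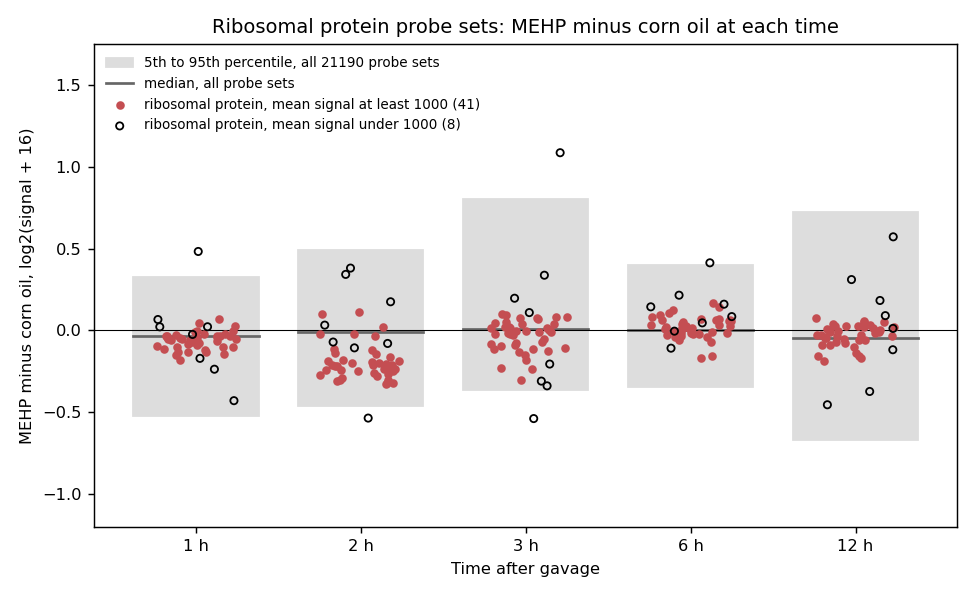
Difference between MEHP and corn oil animals (vertical axis, log2(signal + 16)) for each of the 49 tested ribosomal protein probe sets at each time after gavage (horizontal axis). Filled points are the 41 probe sets of mean signal of at least 1000, open points the 8 dimmer ones, and grey boxes span the 5th to the 95th percentile of all 21190 probe sets tested. The filled points lie closely together at every time and are shifted below 0 at 2 h.

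At 2 h Rpl27a alone passed the threshold (an adjusted p under 0.05) and was lower, while 0.661% of all probe sets tested passed in either direction, 0.222% higher and 0.439% lower (limma, Benjamini-Hochberg over 21190 probe sets). Rpl27a encodes a large subunit protein. Its signals were 22317, 25685 and 21859 in the corn oil animals and 18577, 18086 and 18920 in the MEHP animals. The groups did not overlap, and the mean fell from 23287 ± 2089 to 18528 ± 419 (SD, n = 3 each). The difference was -0.33 ± 0.07 (SE), a ratio of 0.798, with a 95% interval from -0.48 to -0.17 and an adjusted p of 0.0409. The size depended on the scaling: it was -0.09 after quantile normalization, -0.19 when fitted with the spike level and -0.16 against the 1 h corn oil animals. The call was close to the threshold. Leaving out corn oil animal 48 gave a difference of -0.25 and an adjusted p of 0.204. The adjusted p was 0.12, 0.158 and 0.105 without MEHP animals 43, 44 and 45. The difference stayed at -0.33, -0.31 and -0.34 in these fits. The adjusted p was 0.0504 without corn oil animal 60 of 12 h and 0.0517 without corn oil animal 52 of 3 h, with the difference unchanged. The count rose from 1 to 6 without corn oil animal 7 or MEHP animal 49 of 3 h, to 4 without MEHP animal 57 of 12 h, to 3 without corn oil animal 47 and to 2 without corn oil animal 53 or 54 of 3 h.

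The neighbours of Rpl27a in the ranking by p did not pass. Rps15a, a small subunit protein, read 14200, 16044 and 14578 in corn oil animals and 12740, 12444 and 12579 in MEHP animals at 2 h, a difference of -0.24 ± 0.06 (adjusted p = 0.0509). For Rps9 the signals were 12252, 13234 and 13341 after corn oil and 10401, 9901 and 11197 after MEHP, a difference of -0.30 ± 0.07 (adjusted p = 0.0516). In both cases the highest MEHP animal was below the lowest corn oil animal. Rps16 gave 17245, 19694 and 16846 against 14564, 13622 and 15152, a difference of -0.31 ± 0.08 (adjusted p = 0.0549). Rplp0, which carries the acidic stalk where translation factors dock, gave 15855, 18018 and 16092 against 13176, 13097 and 13667, a difference of -0.32 ± 0.09 (adjusted p = 0.0739). Both groups were again apart, and in each of these genes corn oil animal 48 or 7 was the highest. Rpl41, the smallest ribosomal protein, differed by -0.27 ± 0.07 (adjusted p = 0.0787).

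The median difference at 2 h was -0.20 for the 34 large subunit probe sets, of which Rpl27a passed, and -0.21 for the 15 small subunit probe sets, of which none passed (limma, 8 below the unadjusted 0.05 level). Without adjustment 32 of the 49 were below the 0.05 level, against 14.0% of all probe sets. In 31 the 3 MEHP animals lay below the 3 corn oil animals, against 11.6% of all probe sets, and in 1 they lay above, against 7.33%. Taking both directions together, 18.9% of all probe sets did not overlap. The 7 probe sets that were higher at 2 h were 1 of the 2 for Rpl7l1, Rpl39l1 and Rps4y2 among the bright ones and Rpl28, Rpl39 and the dim probe sets of Rpl3 and Rps24, none of which passed the test. The 30 probe sets with several ribosomal protein symbols had a median of -0.19, with 26 of them lower and none past the threshold (limma, 19 below the unadjusted 0.05 level).

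**Figure D2:**
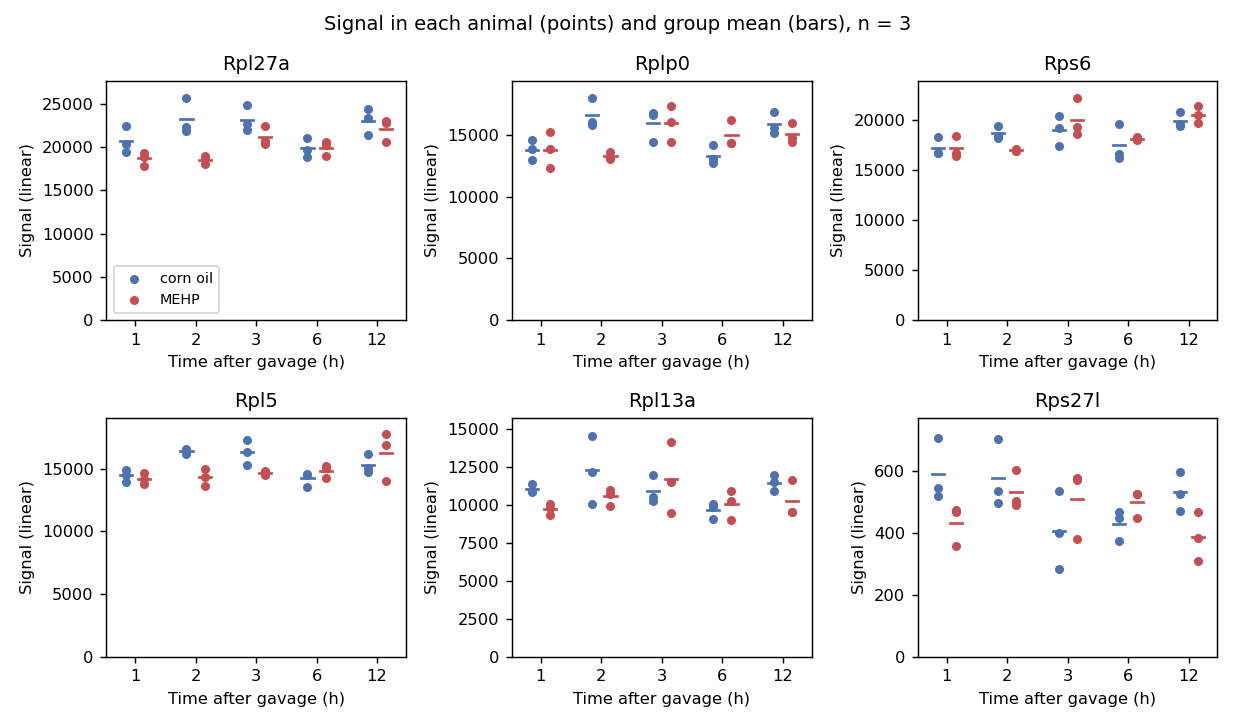
Signal of each animal (points, linear scale from 0) and group means (bars, n = 3) against time after gavage for Rpl27a, Rplp0, Rps6, Rpl5, Rpl13a and Rps27l. At 2 h the MEHP animals of Rpl27a (18086 to 18920) and Rplp0 (13097 to 13667) lie below their corn oil animals, and at 12 h the signals of Rps6 and Rpl5 overlap between the groups.

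Array levels differed between the groups at 2 h. The median log2 signal of the 49 probe sets was 13.65 in corn oil animal 47, 13.84 in animal 48 and 13.64 in animal 7, and 13.49, 13.46 and 13.53 in MEHP animals 43, 44 and 45. In the order of the times, the corn oil group means of this median were 13.59, 13.71, 13.67, 13.56 and 13.73, and the MEHP group means were 13.51, 13.49, 13.66, 13.53 and 13.63. The mean log2 signal of 18 bacterial spike controls was 11.92, 12.18 and 11.24 in corn oil animals 47, 48 and 7. In MEHP animals 43, 44 and 45 it was 11.23, 10.91 and 11.01. The spikes are not testis RNA. Their signals were scaled with the rest of each array, so they also depend on its testis signal. In the order of the times, the group means of this spike level were 11.04, 11.78, 11.72, 11.09 and 11.69 in corn oil animals. In MEHP animals they were 10.93, 11.05, 11.68, 10.98 and 11.75. The corn oil mean of 2 h thus lay with the 3 and 12 h groups, and the MEHP mean of 2 h with the 1 and 6 h groups. Apart from animal 7, treatment and spike level went together at 2 h. The log2 ratio of 3′ to 5′ control probe signals at 2 h was lower in the corn oil animals. It was 0.07, 0.10 and 0.16 there, against 0.30, 0.35 and 0.29 in the MEHP animals. Fitted together with the spike level, the median difference at 2 h was -0.11, and after quantile normalization it was -0.06. No ribosomal protein passed under either, and the part of array processing in the 2 h difference was not tested further. Corn oil animal 48 also had the smallest gavage volume (0.178 ml), followed by MEHP animal 49 of 3 h (0.188 ml). Their medians of the 49 probe sets, 13.84 and 13.79, were the highest of all arrays. Corn oil animal 62 of 12 h was also at 13.79, with 0.245 ml. The part of gavage volume was not tested.

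In the 9 pairings of a MEHP with a corn oil animal at 2 h the median difference lay between -0.37 and -0.09, with 38 to 44 of the 49 probe sets lower. The pair with nearly equal spike levels, corn oil animal 7 and MEHP animal 43 (a difference of -0.01), had a median of -0.13 with 38 lower. Animal 7 has a number outside the run of the other animals (31 to 62). Its description code also has another style, though its labels give corn oil. Leaving out corn oil animals 47 and 48 leaves animal 7 as the single control, whose spread is then taken from the other groups. The median was -0.13 in that fit, and Rpl27a was at -0.24 (adjusted p = 0.279). Against the corn oil animals of 1 h, the MEHP animals of 2 h had a median of -0.05, and none passed. The RNA integrity number, a score of RNA quality, was 8.2 to 8.3 in corn oil and 8.4 to 8.5 in MEHP animals at 2 h. It was 8.5, 9.6 and 10 in the corn oil animals of 1 h, and its part was not tested. Among the 161 other probe sets of mean signal of at least 10000 the median at 2 h was -0.05, with 96 lower, whereas the 34 ribosomal protein probe sets of that brightness had a median of -0.21, with 33 lower.

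**Figure D3:**
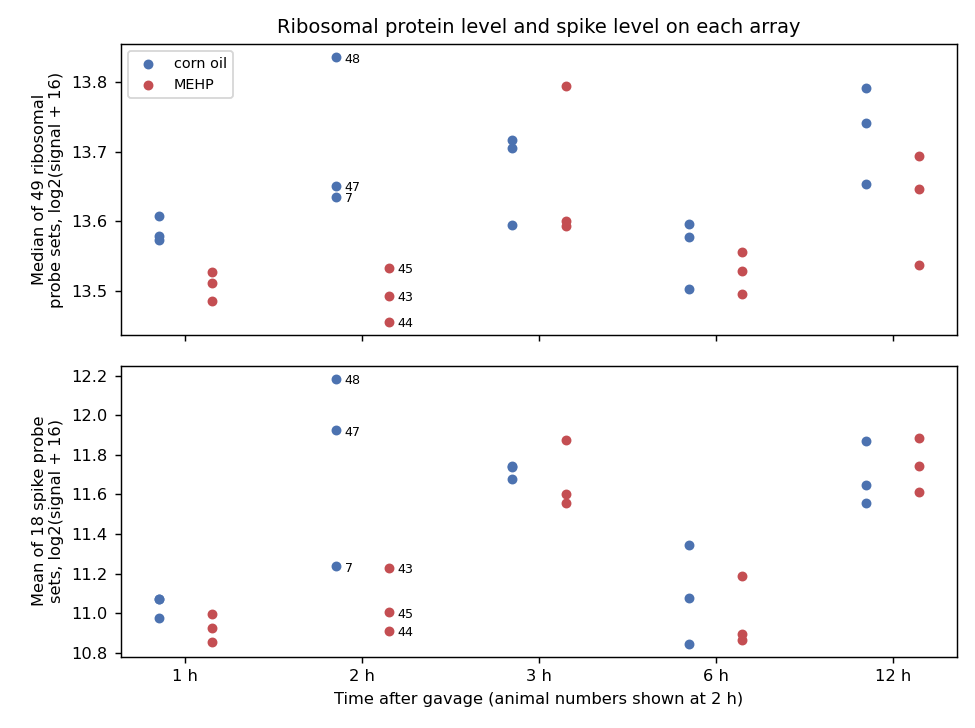
Median log2(signal + 16) of the 49 ribosomal protein probe sets (upper panel) and mean log2(signal + 16) of the 18 spike controls (lower panel) on each array, by time and treatment, with animal numbers at 2 h. Corn oil animal 48 has the highest value in both panels (13.84 and 12.18), and MEHP animal 44 has the lowest value in the upper panel (13.46).

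Few markers of testis cell types passed at 2 h, where 0.661% of all probe sets did. Of 18 Sertoli cell markers 13 were tested, and all 13 had differences below 0, with a median of -0.29 and none past the threshold. Their summed signal ran from 64250 to 90560 in corn oil and from 57731 to 59722 in MEHP animals. All 13 macrophage markers were lower as well (median -0.52), C1qb past the threshold, and their summed signal was 2988 to 3685 against 2439 to 2489. All 7 tested spermatogonial markers were below 0 (median -0.19), Dmrt1 past the threshold, with sums of 4924 to 6870 against 4891 to 4990. Of 8 spermatid markers 5 were above 0 (median 0.30), with sums of 5452 to 15503 in corn oil and 11936 to 12674 in MEHP animals. Of 9 spermatocyte markers 5 were above 0 (median 0.03). None of either list passed. Of 10 Leydig cell markers 8 were below 0 (median -0.19). So were 4 of 8 peritubular myoid cell markers (median 0.01) and 4 of 7 endothelial markers (median -0.02), and no gene of these lists passed. The part of these cells in the ribosomal protein difference was not tested.

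At 1 h no probe set of any gene passed the test (0% of 21190 tested; limma, 518 below the unadjusted 0.05 level), and 1 ribosomal protein probe set was below that level against 2.44%. That probe set was Rps27l, a paralogue of Rps27 known as a p53 target in human cells. It read 546, 518 and 707 in corn oil animals and 475, 467 and 358 in MEHP animals, a difference of -0.43 ± 0.20 (adjusted p = 0.941). Next by p were Rpl27a at -0.15 ± 0.07, the dim Rps13 at 0.48 ± 0.24, Rpl18 at -0.13 ± 0.07 and Rps28 at -0.12 ± 0.07, each with an adjusted p of 0.941. Among the bright members the differences at 1 h ran from -0.18 (Rpl13a) to 0.07 (Rps4y2). Groups did not overlap in 11 lower and 1 higher probe sets, against 10.3% and 9.02% of all probe sets (19.3% in both directions). Array median centring turned the median at 1 h to 0.01.

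At 3 h no ribosomal protein passed, where 0.0425% of all probe sets did, and 7 were below the unadjusted 0.05 level against 10.1%. The smallest p belonged to Rpl26l1, a dim paralogue of Rpl26, with 185, 195 and 207 in corn oil and 144, 124 and 123 in MEHP animals, a difference of -0.54 ± 0.14 (adjusted p = 0.356). The dim probe set of Rpl3 read 143, 233 and 245 against 601, 388 and 381, a difference of 1.09 ± 0.29 (adjusted p = 0.356). The bright Rpl3 probe set differed by 0.01 ± 0.10 at the same time, so the 2 probe sets of this core protein of the large subunit disagreed. Rpl24 differed by -0.18 ± 0.07, the bright Rps24 probe set by -0.23 ± 0.09 and Rps4y2 by -0.24 ± 0.11, with adjusted p of 0.48 or higher. Without MEHP animal 49 the bright Rps24 probe set was at -0.08 and Rps4y2 at -0.03. In 6 probe sets the MEHP animals lay below the corn oil animals (4.87% of all probe sets) and in 1 above (6.53%, and 11.4% in both directions). The median changed sign without corn oil animal 54 (0.03) or MEHP animal 50 (0.01), and was -0.08 with array median centring.

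At 6 h no ribosomal protein passed (0.203% of all probe sets did, 0.179% higher and 0.0236% lower), and 1 was below the unadjusted 0.05 level against 5.17%. It was Rpl24, with 11548, 12215 and 11696 after corn oil and 10652, 9772 and 11388 after MEHP, a difference of -0.16 ± 0.07 (adjusted p = 0.916). Rplp0 lay above its controls, with 14363, 16238 and 14364 against 14183, 13034 and 12753, a difference of 0.17 ± 0.09 (adjusted p = 0.999). Rpl19 differed by 0.14 ± 0.08, Rpl35 by 0.13 ± 0.09 and Rpl21 by -0.17 ± 0.12. Groups did not overlap in 4 higher and 2 lower probe sets, against 7.62% and 4.36% of all (12% in both directions). The median at 6 h was -0.01 without corn oil animal 36.

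The 12 h comparison is the one in which the rest of the transcriptome moved most. The RNA integrity number was 9.5 to 9.8 in corn oil and 9.2 to 9.3 in MEHP animals there, and its part was not tested. Of all probe sets tested 8.74% passed, 5.06% higher and 3.68% lower, and none of the 49 ribosomal protein probe sets did (limma, 3 below the unadjusted 0.05 level, against 20% of all). The smallest p belonged to 3 dim small subunit probe sets. Rps13 differed by 0.57 ± 0.24 (adjusted p = 0.168), the dim Rps24 probe set by 0.31 ± 0.13 (adjusted p = 0.177) and Rps27l by -0.45 ± 0.20 (adjusted p = 0.193). Rps27l read 471, 526 and 598 in corn oil and 309, 385 and 468 in MEHP animals, which did not overlap. Rpl23a followed at -0.16 ± 0.08 and Rpl35 at -0.16 ± 0.09. Among the 41 bright probe sets the differences ran from -0.18 (Rpl21) to 0.08 (Rpl5), the largest being a ratio of 1.14.

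For single probe sets, the intervals bound how much was missed at 12 h if the authors' scaling is taken as exact. They do not include an error of scaling shared by the members. For 42 of the 49 the 95% interval lay within a 1.5-fold change in either direction, and for 38 within 1.25-fold. The 41 bright probe sets were all within 1.5-fold and 37 of them within 1.25-fold, whereas 1 of the 8 dim ones was. Over all probe sets tested, which were mostly dimmer (median mean signal 354, against 12472 for the 49), 46.3% lay within 1.5-fold. At 2 h, 45 of the 49 were within 1.5-fold but 12 within 1.25-fold. In 2 probe sets the MEHP animals lay below the corn oil animals at 12 h and in 1 above, against 11.5% and 10.2% of all probe sets (21.7% in both directions). The median at 12 h changed sign without corn oil animal 62 (0.01) or MEHP animal 59 (0.02).

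**Figure D4:**
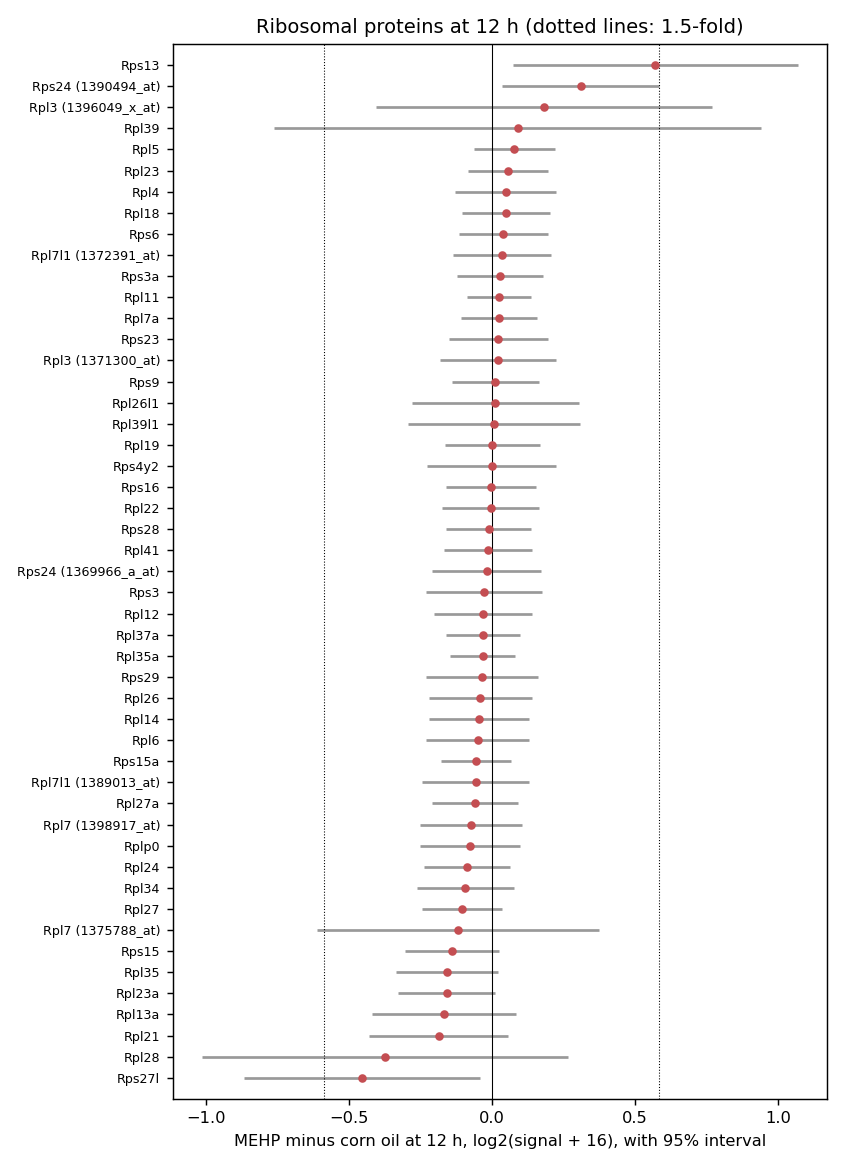
MEHP minus corn oil at 12 h (horizontal axis, log2(signal + 16)) for each of the 49 tested ribosomal protein probe sets, with 95% intervals as bars and 1.5-fold changes as dotted lines. The bars of 42 probe sets stay between the dotted lines, and the wide bars belong to the dim probe sets of Rpl39, Rpl28 and Rpl3.

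Marker genes of several cell types changed at 12 h. Of 13 Sertoli cell markers tested, Ctsl was higher and Inhbb and Aard were lower past the threshold, with a median of 0.00. That is 23.1% of the list, against 8.74% of all probe sets. Of 7 spermatogonial, 9 spermatocyte and 8 spermatid markers, 5, 9 and 2 were below 0 in turn. Their medians were -0.19, -0.09 and 0.04, and none passed. Of 7 endothelial markers Kdr passed, as higher. The summed signal of 10 tested Leydig cell markers was 17416 to 21609 in corn oil and 8726 to 13884 in MEHP animals, with 6 of the 10 lower and 2 higher past the threshold, where 3.68% of all probe sets were lower and 5.06% higher. For 13 macrophage markers it was 2743 to 2813 against 4243 to 12722 (middle animal 4413), with 4 higher. For 8 peritubular myoid cell markers it was 3902 to 4307 against 5869 to 8478, with 5 higher. Of 10 neutrophil markers only S100a8 and S100a9 reached the filter, and their summed signal was 15.8 to 30.6 against 375 to 7358 (middle animal 723). In the other groups it stayed between 3.72 and 209.8, so the high MEHP animals of 12 h were what brought them into the test, and their direction is a description. The medians of the Leydig, macrophage and peritubular lists were -1.07, 0.51 and 0.82 in turn, beside -0.02 for the ribosomal proteins, and their part in the ribosomal protein values was not tested.

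Members with functions beyond the ribosome were followed at all times. Rpl5 and Rpl11 join 5S RNA in the particle that binds Mdm2. Rpl5 read 16159, 16595 and 16527 in corn oil and 13652, 14320 and 14960 in MEHP animals at 2 h, without overlap, a difference of -0.20 ± 0.07 (adjusted p = 0.183). At 12 h its signals overlapped, at 14733, 15087 and 16140 against 17783, 16888 and 14055, a difference of 0.08 ± 0.07 (0.18 without MEHP animal 59). Rpl11 differed by -0.12 ± 0.06 at 2 h, where MEHP animal 43 (16352) lay within the corn oil range of 16008 to 17055, and by 0.03 ± 0.06 at 12 h. Rps6, the target of the S6 kinases, read 18245, 19438 and 18454 against 16918, 17130 and 16887 at 2 h, a difference of -0.14 ± 0.08 (adjusted p = 0.413), and 0.04 ± 0.08 at 12 h. After quantile normalization both turned at 2 h, to 0.05 for Rps6 and 0.03 for Rpl11, and Rpl5 was at -0.06. Fitted with the spike level Rpl11 was at 0.00. These arrays measure the Rps6 message and not its phosphorylation.

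Rpl13a, which can leave the ribosome to silence inflammatory messages, differed by -0.20 ± 0.12 at 2 h (adjusted p = 0.472) and by -0.17 ± 0.12 at 12 h (adjusted p = 0.505). At 2 h it turned to 0.09 when fitted with the spike level and to 0.06 with animal 7 as the single control. Its 12 h signals were 11528, 10917 and 11992 in corn oil and 11672, 9543 and 9574 in MEHP animals, so that 1 MEHP animal lay among the controls. Rpl22, an RNA-binding protein of the large subunit, differed by -0.29 ± 0.08 at 2 h (adjusted p = 0.094) and by 0.11 ± 0.08 at 6 h, without overlap at either time. At 12 h it was at -0.00 ± 0.08. Rps3, at the entry of the messenger RNA channel, read 8380, 9208 and 9188 against 7790, 7757 and 7737 at 2 h, a difference of -0.20 ± 0.10 (adjusted p = 0.367). The bright Rpl3 probe set gave -0.24 ± 0.10 at 2 h (adjusted p = 0.272) and 0.02 ± 0.10 at 12 h.

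The paralogues, 6 probe sets of 5 genes, ranged from among the brightest to undetected. Rpl39l1, a copy of the exit tunnel protein Rpl39, was bright, with 8791 to 15133 in corn oil and 12653 to 13605 in MEHP animals at 2 h. The mean signal of this probe set was 14292, against 258 for the Rpl39 probe set, and whether it also reads the Rpl39 message was not tested. The differences of Rpl39l1 were 0.10 ± 0.15 at 2 h, -0.31 ± 0.15 at 3 h (adjusted p = 0.492) and 0.01 ± 0.15 at 12 h. The 2 h value turned to -0.13 without corn oil animal 48 (8791), to -0.10 when fitted with the spike level and to -0.22 with animal 7 as the single control. At 3 h the groups did not overlap, with 15190, 16463 and 16344 against 10029, 14558 and 14821. The 2 probe sets of Rpl7l1, a copy of Rpl7, disagreed at 2 h. One read 1603, 1603 and 1515 in corn oil and 1859, 1633 and 1625 in MEHP animals, a difference of 0.11 ± 0.08, and the other 2441, 2353 and 2483 against 1996, 1933 and 2109, a difference of -0.27 ± 0.09 (adjusted p = 0.573 and 0.174). Rpl3l, the striated muscle form of Rpl3, was not tested, with signals from 3.8 to 51.9. None of the 5 tested paralogue probe sets passed at any time (limma; below the unadjusted 0.05 level were 1 each at 1, 2 and 12 h, 2 at 3 h and none at 6 h).

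Over the 5 times together the mean difference passed for Rpl27a again, where 2.4% of all probe sets passed, 1.65% higher and 0.755% lower. Below the unadjusted 0.05 level were 15 of the 49, against 12.4%. It was -0.13 ± 0.03 (adjusted p = 0.0311), a ratio of 0.913, with the 2 h comparison as its largest part. The call was lost, with adjusted p between 0.0561 and 0.0628, without any 1 of corn oil animals 42 (1 h), 54 (3 h), 34 (6 h), 60 or 62 (12 h) or of MEHP animals 38 (1 h), 44 (2 h), 32 (6 h) or 59 (12 h), while without corn oil animal 48 the dim Rpl3 probe set passed as well. Rps15a followed at -0.09 ± 0.03 (adjusted p = 0.0818) and Rpl24 at -0.10 ± 0.03 (adjusted p = 0.124). Of the 49, 43 had a mean difference below 0, with a median of -0.05, beside -0.01 over all probe sets.

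Whether a difference changed with time was tested directly. None of the 49 passed (limma F test, 2.87% of all probe sets did; 10 below the unadjusted 0.05 level, against 16.3%), and the smallest adjusted p was 0.136 for Rplp0. Without MEHP animal 59 of 12 h, Rpl5 passed. None passed for 12 h against 6 h, where 1.5% of all did, 1.01% higher and 0.486% lower (limma, 2 below the unadjusted 0.05 level, against 11.1%), with a median change of -0.03. The lower values at 2 h are therefore not shown to differ from those at other times for any single member.

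Members varied together between animals of the same group. Over the 30 arrays the residual log2 signals of pairs among the 41 bright probe sets correlated with a median r of 0.42 (quartiles 0.13 and 0.61). The median was 0.10 among the 8 dim probe sets and 0.22 between bright and dim ones. These pairs share arrays and their scaling, so they are not independent, and the correlations are descriptions.

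Of 5 listed ribosomal proteins with symbols outside the rule, 2 were tested. Rpsa, the laminin receptor protein of the small subunit, read 11423, 11918 and 11606 in corn oil and 9649, 9062 and 9544 in MEHP animals at 2 h, a difference of -0.31 ± 0.08 (adjusted p = 0.0692). Rack1, a signalling scaffold at the head of the small subunit, read 6514, 7440 and 6820 against 5313, 5247 and 5399, a difference of -0.38 ± 0.09 (adjusted p = 0.061). Neither passed in the main fit, and in both the groups did not overlap. The number passing at 2 h ran from 0 to 2 over the alternatives.

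Translation factors whose messages also carry TOP motifs were examined next. Of 14 tested, 11 were below 0 at 2 h (median -0.11) and none passed. At 12 h 1 passed (7.14%, against 8.74% of all probe sets). Eef1a1, which brings aminoacyl-tRNA to the ribosome, differed by -0.23 ± 0.08 at 2 h (adjusted p = 0.206) and by 0.04 ± 0.08 at 12 h, and Eef2, the translocase, by -0.15 ± 0.10 and 0.01 ± 0.10. Eif3h, a subunit of the initiation factor that holds the small subunit, fell at 12 h by 0.26 ± 0.08 (adjusted p = 0.0336), from 6810, 6863 and 7673 to 5003, 6533 and 6354. Its difference was -0.14 and its adjusted p 0.318 if MEHP animal 57, the lowest, was left out. The adjusted p was 0.194 with corn oil animal 62 left out and 0.0518 with animal 61 left out. Of 37 initiation and control factors 1 passed (2.7%, against the same 8.74%), Eif6, which keeps the subunits apart, at 0.61 ± 0.15 (adjusted p = 0.00979) at 12 h. MEHP animal 57 read 5450 and the other two 2818 and 2891, against 2193 to 2436 in corn oil animals, and without that animal the difference was 0.30 (adjusted p = 0.0679). Leaving out corn oil animal 62 gave 0.57 (adjusted p = 0.0517).

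Among genes that make ribosomes the 12 h calls were few. Of 78 tested genes of ribosome biogenesis and ribosomal RNA synthesis none passed before 12 h (limma), and at 12 h 2 rose and 2 fell (5.13% against 8.74% of all probe sets), with a median of 0.03. Myc, a transcription factor that drives ribosome production, rose at 12 h by 2.41 ± 0.34 (adjusted p = 2.76e-05). It read 23.7, 49.6 and 86.5 in corn oil and 444, 211 and 370 in MEHP animals. Corn oil animals 60 and 61 lay below the 40th percentile of their arrays (77.7 and 80.3), so the size is uncertain. Over the alternatives it ran from 1.78 to 2.78. Rcl1, of small subunit processing, rose by 0.55 ± 0.17, while Taf1b, of the RNA polymerase I initiation factor, fell by 0.46 ± 0.14 and Wdr75, another processing factor, fell by 0.53 ± 0.16. The nucleolar proteins fibrillarin (Fbl) and nucleolin (Ncl) differed by -0.01 ± 0.12 and -0.18 ± 0.23 at 12 h, and did not pass.

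Mitochondrial ribosomal proteins build the separate ribosome of the mitochondrion. Of 73 tested, 64 were below 0 at 12 h, with a median of -0.12 against -0.04 over all probe sets, and 4 fell past the threshold (5.48%, against 8.74% of all probe sets and 3.68% lower). Mrpl40 fell by 0.91 ± 0.15 (adjusted p = 0.000137), from 628, 549 and 577 to 211, 390 and 335, without overlap. Mrps31 fell by 0.59 ± 0.18, Mrpl51 by 0.35 ± 0.10 and Mrpl32 by 0.27 ± 0.08. Over 1, 2, 3 and 6 h the median of the list was -0.01, -0.06, -0.13 and -0.06, with none past the threshold (limma).

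**Figure D5:**
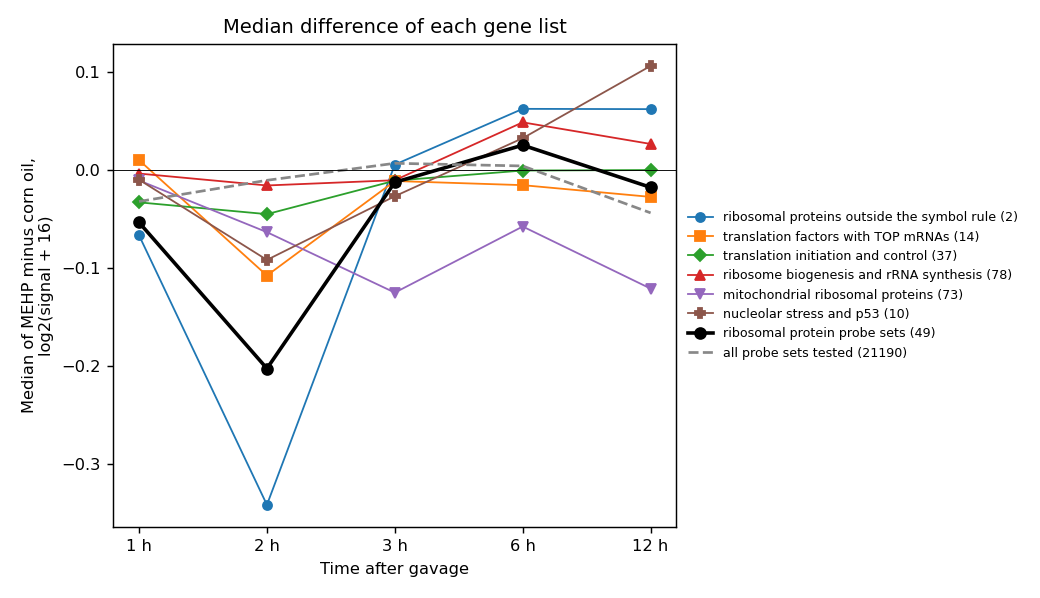
Median MEHP minus corn oil difference (vertical axis, log2(signal + 16)) of the ribosomal proteins and of 6 related gene lists against time after gavage, with the number of probe sets tested in brackets and all 21190 probe sets as a dashed line. The ribosomal proteins (black) dip to -0.20 at 2 h and lie near 0 at 3, 6 and 12 h, while the mitochondrial ribosomal proteins are at -0.12 at 12 h.

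A list of genes linked to nucleolar stress and p53 included several calls at 12 h, while nucleolar stress itself was not measured. Of 10 tested, 2 rose and 2 fell (40% of the list, against 8.74% of all probe sets). Cdkn1a, the p21 inhibitor of the cell cycle and a p53 target, rose by 1.62 ± 0.17 (adjusted p = 5.92e-07), from 440, 361 and 359 to 1790, 906 and 1114. Gadd45a, a stress gene, rose by 0.44 ± 0.14, with groups that overlapped. Sesn1 and Sesn2, the sestrins that restrain mTOR and are also p53 targets, fell by 0.76 ± 0.15 and 0.56 ± 0.17. Mdm2 itself differed by 0.08 ± 0.14, with 2399, 2260 and 2534 against 2349, 2621 and 2636.

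The 12 h calls differed in how they held when animals were left out. Those of Myc, Cdkn1a, Sesn1 and Mrpl40 passed in each of 30 refits that left out 1 animal. With only the arrays of the compared times, Sesn1 and Mrpl40 no longer passed (adjusted p = 0.0801 and 0.119). Nor did the other companion genes called at 12 h except Myc and Cdkn1a (adjusted p up to 0.436). Those of Gadd45a, Sesn2, Taf1b, Mrps31, Mrpl32, Mrpl51, Rcl1 and Wdr75 were lost in 4 to 24 of the 30. Without MEHP animal 57 the differences of Gadd45a, Taf1b, Mrps31, Rcl1 and Wdr75 shrank to 0.23, -0.20, -0.36, 0.29 and -0.29 (adjusted p = 0.397, 0.415, 0.344, 0.361 and 0.319). Those of Mrpl32 and Mrpl51 stayed at -0.24 and -0.32, with adjusted p of 0.173 and 0.128 from fewer animals. Leaving out corn oil animal 60, 61 or 62 also ended each of these calls and that of Sesn2, with adjusted p from 0.0512 to 0.218, except that Mrpl51 still passed without animal 61 and was lost without MEHP animal 59 (0.0674). The differences kept most of their size in these refits, for example 0.54 to 0.55 for Rcl1 and -0.57 to -0.53 for Sesn2. With no filter on low signals, or moderation without a trend, Gadd45a, Taf1b, Mrps31, Mrpl32, Sesn2 and Eif3h did not pass (adjusted p from 0.0514 to 0.0696), and array median centring ended the calls of Taf1b, Mrps31, Mrpl32, Mrpl51 and Eif3h (adjusted p from 0.0629 to 0.198).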

How the data were processed

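Testis RNA of 30 rats, 3 in each of 10 groups, was hybridised to 1-colour Affymetrix Rat230_2 arrays, 1 per animal. Each deposited value is a linear intensity that the authors had scaled (2% trimmed mean 500.1 to 500.2 on each array). They used GCOS 1.0, per the submitters' processing notes. How probes were summarised was not given in the sources used here, nor was the scaling target. The number of arrays limits the precision. Such a trimmed mean leaves out the brightest 2%, where 38 of the 52 ribosomal protein probe sets lay.

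Values were used as log2(signal + 16), which understates changes of low signals. The test kept 21190 of 31042 probe sets, those reaching the 40th percentile in 3 arrays or more. Gene names came from the platform annotation, with 50 of 52 members matched to RefSeq by Entrez number and 2 by symbol. One limma 3.58.1 model (R 4.3.3) held a mean for each of the 10 groups, with moderated variances (trend) and 20 residual degrees of freedom. It tested MEHP against corn oil per time, the mean of these differences, 12 h against 6 h, and time dependence (F test), with Benjamini-Hochberg adjustment over every probe set tested and a threshold of 0.05. The model was tested on simulated data.

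Named genes were, per time, members past the threshold without overlap (up to 12 a direction), with the 5 of smallest p where fewer than 5 passed. Fixed members (Rplp0, Rpl3, Rpl5, Rpl11, Rpl13a, Rpl22, Rps3, Rps6), all paralogues, and companion list genes past the threshold were also named. Fbl, Ncl, Eef1a1, Eef2, Mdm2 and further members were named after their values were seen. The members, gene lists and rules were chosen with earlier results of these data known. A gene in a list stands as its brightest probe set. Alternatives were pseudocounts, filter, normalization, moderation, covariates, probe set choice and leaving out each animal. Promoter windows are RefSeq's (GRCr8).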

Additional observations from a re-analysis of the deposited data

Results flagged for a closer look

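In 3 genes of the companion lists the difference between MEHP and corn oil animals itself changed with time (limma F test, Benjamini-Hochberg over 21190 probe sets), and no ribosomal protein did so. Of all probe sets tested 2.87% passed. Of the 3 genes, 1 was among 10 of the nucleolar stress and p53 list (10%) and 1 among 78 biogenesis genes (1.28%). The last was 1 of 73 mitochondrial ribosomal proteins (1.37%). None passed in the other companion lists. Cdkn1a had an adjusted p of 0.000618, with differences of 0.01, -0.04, 0.15, 0.34 and 1.62 over 1, 2, 3, 6 and 12 h. Myc had an adjusted p of 0.0131, with 0.06, 0.44, 0.37, -0.04 and 2.41 at the same times. Leaving out corn oil animal 60 gave 0.0754, and leaving out MEHP animal 57 gave 0.0624. Mrpl40, of the mitochondrial ribosome, had an adjusted p of 0.048, with -0.15, -0.14, -0.04, -0.06 and -0.91. That call was lost in 28 of 30 refits that left out 1 animal, with adjusted p up to 0.169. Single outlying animals were not tested in groups of 3.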

How the results depend on the processing

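No paired analysis was possible because no animal number occurs in more than 1 group. The count of 1 ribosomal protein past the threshold at 2 h became 2 with a pseudocount of 1 (Rpl27a and Rps15a) and 0 with no filter on low signals, quantile normalization, moderation without a trend, the spike level as a covariate, the arrays of the compared times only, or the 1 h corn oil animals as controls. It stayed at 1 with array median centring (Rps16) and with the 3′ to 5′ covariate (Rps9). It was also 1 without corn oil animals 47 and 48, but there 1 control is left, and the call (Rpl39, higher) rests on its single reading of 62, below the filter level of its array (75.7). Leaving out single animals gave 0 to 6, the highest without corn oil animal 7 or MEHP animal 49 of 3 h, then 4 without MEHP animal 57 of 12 h. For the mean over times the count of 1 became 0 with no filter, array median centring, quantile normalization, moderation without a trend or the spike covariate, and 2 with probe sets of several symbols, and was 0 to 2 without single animals. Time dependence gave 0 to 1, and the counts at 1, 3, 6 and 12 h and for 12 h against 6 h 0 to 0. The median difference at 2 h was -0.0608 after quantile normalization, -0.105 with the spike covariate, -0.128 without corn oil animals 47 and 48 and -0.0542 against the 1 h corn oil animals. At 3 h it was -0.0819 with array median centring. Without single animals the medians ran from -0.0763 to -0.0521 at 1 h, -0.25 to -0.142 at 2 h, -0.0723 to 0.0274 at 3 h, -0.00744 to 0.0651 at 6 h and -0.0609 to 0.0173 at 12 h, beside an SD of 0.0686 between replicates. Rpl27a at 2 h had adjusted p of 0.0805 with no filter, 0.0974 with centring, 0.588 after quantile normalization, 0.0915 without a trend, 0.486 with the spike and 0.0667 with the 3′ to 5′ covariate, 0.35 with the compared times only, and 0.0277 to 0.204 without single animals. The cause of these changes was not tested. The alternatives with corn oil animals left out in pairs, with the 1 h controls, with probe sets of several symbols and with members of at least 1000 signal were chosen after seeing the data. Of the 8 dim members 2, 4, 1, 3 and 1 had intervals within 1.5-fold over the 5 times.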

Other observations

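The array carries a control probe set for 5S ribosomal RNA, an RNA that the mature ribosome contains. Its signal ran from 246 to 468 over the 30 arrays. At 2 h it was 365, 433 and 247 in the corn oil animals and 468, 426 and 371 in the MEHP animals, so the groups overlapped, and it was outside the test.

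Among the 30 probe sets that list several ribosomal protein symbols, 1 passed for the mean over times (lower) and none at any single time (limma). Of all probe sets 2.4% passed for the mean over times, 0.755% as lower. All 30 had a mean difference below 0. Over 1, 2, 3, 6 and 12 h, the number below the unadjusted 0.05 level was 0, 19, 3, 0 and 3. The shares of all probe sets below it were 2.44%, 14%, 10.1%, 5.17% and 20% in the same order.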
